A study of Homo sapiens with 6 samples.

Results

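CDH11, TWIST2, COL6A3, PDGFRA and LUM are 5 genes associated with mesenchymal cells, the matrix-producing and motile cells of connective tissue. They were taken by symbol from a deposited table of 986 genes, and all 5 were found. The table compares 3 control libraries of K1, an established human papillary thyroid carcinoma line, with 3 libraries of K1 cells given a guide RNA against the microRNA miR-31, here called miR-31 KO. Both groups were grown in the same medium with serum, and K1 is 1 line, so the libraries are not separate tumours. The labels do not say whether the libraries came from separate cultures or whether the edited cells were 1 clone, so p-values cover only the library-to-library spread, which can be technical. The design text mentions duplicates, but 3 titles per group were given and used.

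Epithelial cells can take on mesenchymal features, a process known as the epithelial-mesenchymal transition, in which transcription factors of the SNAI, ZEB and TWIST families bind short E-box sequences and cell-cell adhesion is remodelled. CDH11 is a type II cadherin, an adhesion receptor of mesenchymal and bone-forming cells. TWIST2 is a basic helix-loop-helix transcription factor. COL6A3 encodes the alpha-3 chain of collagen VI, a microfibril-forming collagen that surrounds many cells. PDGFRA is a receptor tyrosine kinase for platelet-derived growth factors and a common marker of fibroblasts, and LUM is lumican, a small leucine-rich proteoglycan that binds collagen fibrils.

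The microRNA targeted in the cells is shown because the study sought its target genes. MicroRNAs lower transcripts that carry a match to their seed, bases 2 to 8 from the 5′ end, here in capitals. The sequence is the RefSeq record for GRCh38.p14, chromosome 9, 21512158 to 21512178, minus strand.
hsa-miR-31-5p: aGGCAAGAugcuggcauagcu
No annotated 3′ UTR of the 5 members held a match to this seed, searched as TCTTGCC or CTTGCCA on the transcript strand (GENCODE 29). The longest 3′ UTR was 4338 bases for CDH11, 2975 for PDGFRA, 1536 for LUM, 762 for COL6A3 and 737 for TWIST2. Among all listed genes with an annotated 3′ UTR, 185 of 955 (19.4%) held a match in their longest one. The absence of a match says only that these letters are not in the annotated windows.

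TWIST proteins bind E-boxes, so the 250 bases before annotated starts are shown for the members found in the RefSeq promoter table (GRCh38.p14), which were PDGFRA, COL6A3 and TWIST2. E-boxes, searched as CANNTG, which reads the same on both strands, are in capitals. The windows are chr4:54229043-54229292 (plus strand) and chr4:54233710-54233959 (plus strand) for 2 starts of PDGFRA, chr2:237414165-237414414 (minus strand) for COL6A3 and chr2:238847835-238848084 (plus strand) for TWIST2.
PDGFRA, upstream start: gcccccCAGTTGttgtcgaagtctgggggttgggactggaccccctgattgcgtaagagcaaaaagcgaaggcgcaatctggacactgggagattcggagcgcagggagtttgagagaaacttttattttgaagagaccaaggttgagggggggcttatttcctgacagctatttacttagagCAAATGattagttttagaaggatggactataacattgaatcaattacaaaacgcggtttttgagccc
PDGFRA, downstream start: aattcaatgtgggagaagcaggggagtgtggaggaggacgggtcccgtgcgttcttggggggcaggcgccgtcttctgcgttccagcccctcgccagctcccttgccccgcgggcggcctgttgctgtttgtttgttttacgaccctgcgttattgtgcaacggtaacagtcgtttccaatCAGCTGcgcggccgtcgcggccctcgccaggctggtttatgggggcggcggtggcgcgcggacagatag
COL6A3: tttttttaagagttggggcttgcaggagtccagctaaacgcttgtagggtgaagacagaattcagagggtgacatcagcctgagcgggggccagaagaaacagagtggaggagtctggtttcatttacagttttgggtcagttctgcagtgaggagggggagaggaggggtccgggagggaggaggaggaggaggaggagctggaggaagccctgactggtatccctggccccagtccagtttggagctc
TWIST2: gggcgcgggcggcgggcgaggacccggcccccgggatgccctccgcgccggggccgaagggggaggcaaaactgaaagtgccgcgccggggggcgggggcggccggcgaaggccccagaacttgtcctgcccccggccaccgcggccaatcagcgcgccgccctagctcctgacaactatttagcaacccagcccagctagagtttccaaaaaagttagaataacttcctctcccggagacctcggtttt
The upstream PDGFRA window held 2 E-boxes and the downstream window held 1. The COL6A3 and TWIST2 windows held 0. At least 1 E-box was present in 61.8% of all 35116 windows of this length and 2 or more in 28.3%, so the counts are common ones, and a match is a description of letters and not a bound site.

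The deposited values are normalized read counts. The table lists only genes whose log2 fold change was 1 or more in size and whose adjusted p was below 0.05 in the authors' test, which held for 986 of 16806 genes tested (5.87%). A gene that is not listed therefore cannot be called unchanged, and the listing of all 5 members follows from the way they were chosen. The listed genes summed to between 545354 and 943360 normalized counts per library, and total depth is unknown. Control replicate 1 and miR-31 KO replicate 3 stood apart. The first was the control closest to the KO group in 46.6% of listed genes. The second was the KO library closest to the controls in 50.1%, and both held in 30.5%. With no library apart, each of the 3 in a group would be the closest in about 1 of 3 genes. Of 17 thyroid follicular markers, 3 (SLC26A4, DUOX2 and DUOXA1) were listed and all were lower in miR-31 KO, so the table gives little check of the labelled cell type. The microRNA itself was not among the listed genes, so its targeting could not be checked here.

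Expression of 4 of the 5 members was higher in miR-31 KO and 1 was lower, where 60.1% of all listed genes were higher and 39.9% lower. In none of the 5 did the groups overlap, as was the case for 92.6% of listed genes. In the authors' deposited table all 5 also had an adjusted p under 0.01, which 77.1% of listed genes had, and 3 (CDH11, LUM and PDGFRA) changed by 2 or more on the log2 scale, which 45.8% did. A refit with limma on the listed genes called 3 of the 5 (CDH11, TWIST2 and LUM) and 45.3% of all listed genes. Its adjustment over 16806 genes ranks every unlisted gene behind the listed ones, so its adjusted p-values can be too high. The members separate into an abundant pair, COL6A3 and TWIST2, which changed by a little over the listing threshold in opposite directions, and CDH11, PDGFRA and LUM, which were barely detected in control cells. A gene with few counts needs a larger change to be listed, so a link of low level with large change can follow from the listing. An exact two-sided permutation test of the 3 against 3 libraries gave p = 0.1 for each member, the smallest this design allows.

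**Figure D1:**
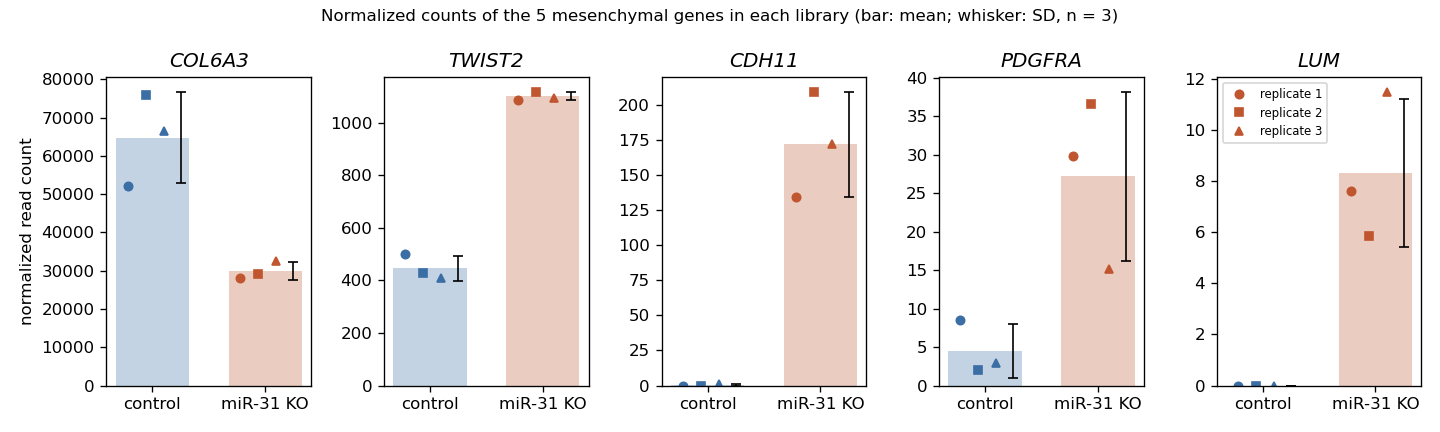
Normalized read counts of each member by group. Bars are means, whiskers SD over 3 libraries, and the 3 symbols are the replicates; each panel has its own axis starting at 0. COL6A3 is lower in all 3 miR-31 KO libraries, and the other genes are higher, with CDH11 and LUM at or near 0 in every control library.

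COL6A3 had the second highest mean normalized count of all 986 listed genes, without regard to gene length, and fell in miR-31 KO. Control replicates 1, 2 and 3 held 52102, 75802 and 66389 normalized counts of it, and miR-31 KO replicates 1, 2 and 3 held 28055, 29174 and 32471. The lowest control was 1.60 times the highest KO library. Control replicate 1 was the lowest control and KO replicate 3 the highest KO library, so the libraries that stand apart lay closest to the other group. The group means were 64764 ± 11933 and 29900 ± 2296 (SD, n = 3), a 2.17-fold lower level in miR-31 KO. In the authors' deposited table the log2 fold change was -1.12 with an adjusted p of 1.22e-16. The limma refit gave -1.10 with an adjusted p of 0.0516, which missed the threshold of 0.05. Without control replicate 1 the refit gave an adjusted p of 0.0211, without control replicate 2 or 3 it gave 0.284 or 0.274, and without 1 KO library it gave 0.0771 to 0.388. With the replicate number as a block the adjusted p was 0.0340. Equal totals over the listed genes gave -1.62 with an adjusted p of 0.0242, and quantile normalization -1.80 with 0.00811. COL6A3 (ENSG00000163359.15) spans 237324003 to 237414375 on the minus strand of chromosome 2 (GRCh38, GENCODE 29).

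TWIST2, the transcription factor of the set, was at 499, 429 and 409 normalized counts in the controls, replicates 1, 2 and 3. The corresponding miR-31 KO libraries held 1088, 1117 and 1095. The KO libraries lay within 1.03-fold of each other, and the lowest of them was 2.18 times the highest control. The control mean was 446 ± 47.5 and the miR-31 KO mean 1100 ± 15.4, a 2.47-fold higher level. The deposited log2 fold change in the authors' deposited table was 1.30, with an adjusted p of 7.51e-16. In the limma refit TWIST2 rose by 1.31 on the log2 scale with an adjusted p of 0.00549, and each refit that left out 1 library kept it under 0.05 (0.00784 to 0.0490). Setting the libraries to equal totals over the listed genes lowered the median log2 fold change of all listed genes by 0.52 and that of TWIST2 to 0.78, with an adjusted p of 0.175 in the limma refit. TWIST2 (ENSG00000233608.3) lies on the plus strand of chromosome 2 from 238848032 to 238910543.

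CDH11, the mesenchymal cadherin, was nearly undetected in the controls, where replicates 1, 2 and 3 held 0.00649, 0.000162 and 0.987 normalized counts. Its levels in replicates 1, 2 and 3 of miR-31 KO were 134, 209 and 172. The control values sum to less than 1 normalized count, and 1 of the 3 libraries holds nearly all of it. Among the 116 listed genes with a control mean under 1, CDH11 had the highest mean in miR-31 KO, where their median was 6.91. The means were 0.331 ± 0.568 and 172 ± 37.5, and no fold is computed against a control level this close to 0. The deposited log2 fold change, 8.53 with an adjusted p of 7.32e-44 by the authors' deposited table, was the third in size of all listed genes. Its size depends on how values near 0 are treated, since the limma refit gave 7.08 with a pseudocount of 1 and 9.55 with a pseudocount of 0.1, with adjusted p of 0.000333 and 0.00548. CDH11 was called in every one of the refits run, with adjusted p-values of at most 0.0145. The gene (ENSG00000140937.13) spans 64943753 to 65126112 on the minus strand of chromosome 16.

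PDGFRA, the growth factor receptor, was low in both groups. Replicates 1, 2 and 3 of the control held 8.49, 2.01 and 2.94 normalized counts. Those of miR-31 KO held 29.9, 36.6 and 15.2. As for COL6A3, control replicate 1 and KO replicate 3 were each the library closest to the other group, and the gap between them was 1.79-fold. The means were 4.48 ± 3.51 and 27.2 ± 10.97, a 6.08-fold higher level in miR-31 KO. The authors' deposited table gave PDGFRA a log2 fold change of 2.58 and an adjusted p of 0.000478. The limma refit gave 2.46 with an adjusted p of 0.0826, and 0.0360 without control replicate 1. It gave 0.291 or 0.303 without control replicate 2 or 3, and 0.413, 0.388 or 0.113 without KO replicate 1, 2 or 3. After quantile normalization the difference was 1.52 with an adjusted p of 0.479. Without control replicate 1 and KO replicate 3 the refit gave 3.31 with an adjusted p of 0.0242, a choice made after the data were seen. PDGFRA (ENSG00000134853.11) spans 54229097 to 54298247 on the plus strand of chromosome 4, and a read-through gene on the same strand, AC058822.1, overlaps it by 66176 bases, so reads may be split between them.

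LUM, the proteoglycan lumican, stood at 0 in every control library, whereas replicates 1, 2 and 3 of miR-31 KO held 7.62, 5.87 and 11.5 normalized counts. The KO mean was 8.33 ± 2.89, and no fold is given against a group listed at 0. In all, 68 listed genes (6.90%) were at 0 in every control library, with a median KO mean of 6.06, and LUM ranked 22 among them by KO mean. The authors' deposited table gave it an adjusted p of 0.000172. In the limma refit on log2 of the value + 1 the difference was 3.18 with an adjusted p of 0.00825. It was 2.13 with an adjusted p of 0.0666 after quantile normalization, and the adjusted p was 0.0518 without control replicate 2 and 0.0520 without control replicate 3. LUM (ENSG00000139329.4) lies on the minus strand of chromosome 12 from 91102629 to 91111831.

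The low values of the groups differed in kind, which touches LUM, CDH11 and PDGFRA. Between 0.5 and 15 normalized counts, 100% of the values in control replicates 2 and 3 and 70.6% in control replicate 1 lay within 0.1 of a whole multiple of 1 step. In the miR-31 KO libraries 31.0% to 41.3% did. The step was fitted to each library for the highest share. Evenly spread remainders give 20% for a step fixed in advance, and a fitted step gives more. Whether the KO shares exceed that was not tested. Whether the columns of the groups were processed in the same way cannot be told from the table. The part of this difference between control and KO in values listed at or near 0 was not tested. In these bulk libraries, more cells that express a gene and more RNA per cell cannot be told apart.

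**Figure D2:**
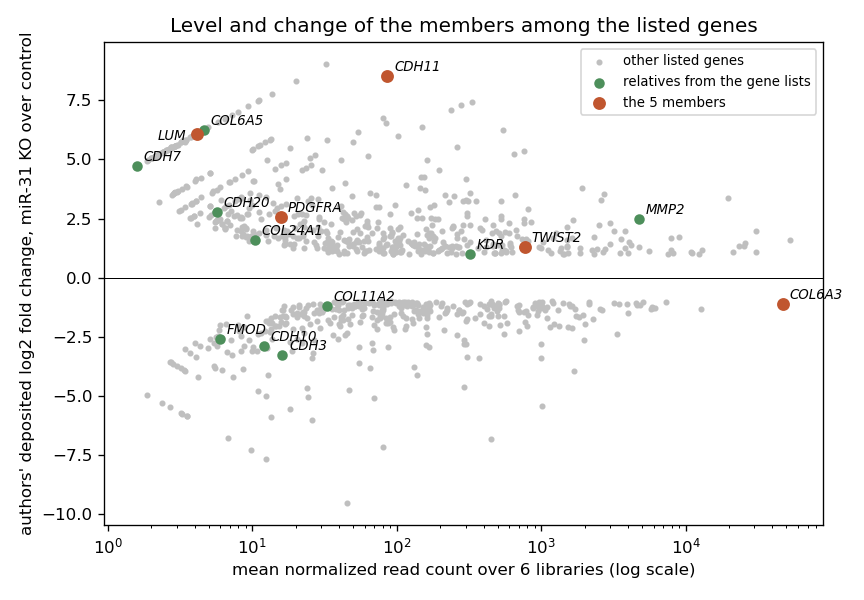
Each point is 1 of the 986 listed genes, with its mean normalized read count over 6 libraries (log axis) against the authors' deposited log2 fold change. COL6A3 lies at the right edge with -1.12 and CDH11 near the top with 8.53, while LUM lies on a diagonal band of genes at low counts; green points are relatives taken from the gene lists.

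Levels of different genes were compared per length, as normalized counts per kb of annotated exons. In control cells COL6A3 had 3299 ± 608 per kb, TWIST2 237 ± 25.3, PDGFRA 0.460 ± 0.360 and CDH11 0.0248 ± 0.0424 (SD, n = 3), and LUM was listed at 0. In miR-31 KO the levels per kb were 1523 ± 117 for COL6A3, 586 ± 8.22 for TWIST2, 12.8 ± 2.80 for CDH11, 2.80 ± 1.13 for PDGFRA and 2.77 ± 0.960 for LUM. The order of CDH11 and PDGFRA thus differed between the groups. PDGFRA and LUM overlapped in miR-31 KO and did not differ beyond their spread, while the other neighbours in the order were separated in every library of a group, except that CDH11 and LUM in control were both at or near 0 and were not ordered. The level of COL6A3 per kb was 13.9 times that of TWIST2 in control and 2.60 times in miR-31 KO. Even in miR-31 KO, TWIST2 stood 45.6 times above CDH11. Using the longest transcript in place of all exons gave the same order in both groups.

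Spread between libraries followed level for some members and not for others. For COL6A3 the coefficient of variation (SD as a percentage of the mean) was 18.4% in control and 7.68% in miR-31 KO, against medians of 31.7% over 9 and 22.4% over 18 listed genes with means above 10000. TWIST2 varied by 10.7% and 1.40%, against 20.1% for listed genes with means of 100 to 1000 in control and 17.4% for means of 1000 to 10000 in miR-31 KO. PDGFRA varied by 78.3% in control, where genes with means of 1 to 10 had a median of 74.6%, and by 40.3% in miR-31 KO, where genes with means of 10 to 100 had 29.9%. CDH11 in miR-31 KO varied by 21.8% and LUM by 34.7%, against medians of 17.8% and 63.5% at their levels. The members barely detected in control thus varied more between libraries in miR-31 KO than the abundant pair. CDH11 was no longer barely detected there, and LUM varied less than the median listed gene of its level. That median also covers genes that fell in miR-31 KO, such as CDH10 and CDH3. LUM had no counts in control and could be listed only through its KO values, so its lower spread can follow from the listing. Whether LUM varied less than other genes without control counts was not tested.

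**Figure D3:**
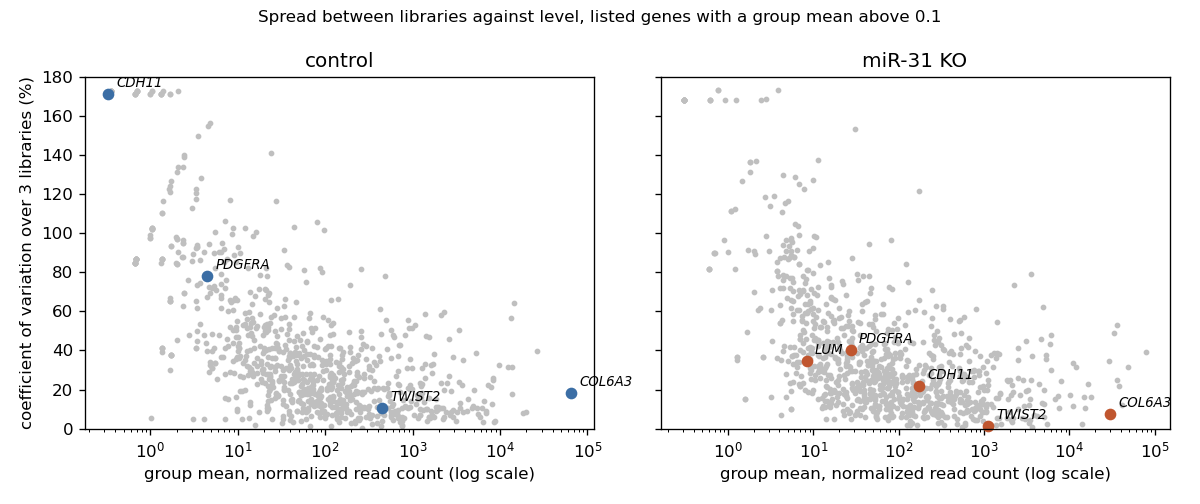
Coefficient of variation over 3 libraries against the group mean on a log axis, for listed genes with a group mean above 0.1 (grey) and the members (coloured), in control and in miR-31 KO. TWIST2 and COL6A3 lie low at the right, with 1.40% and 7.68% in miR-31 KO, and PDGFRA and CDH11 lie high at the left in control, with 78.3% and 171%; LUM is not drawn in control, where it is listed at 0.

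The 3 listed genes most like each member in pattern over the 6 libraries did not include another member. Likeness was the root mean square difference of log2 values (value + 1) after centring each gene on its own mean, over 985 other genes. Size and direction of a change count in this measure. With 985 genes to draw from, absence from the nearest 3 says little about how alike the members were. Closest to CDH11 were TMPRSS15, ZNF711 and IQCA1, at 0.44, 0.57 and 0.61, where the median listed gene lay at 2.96. C2CD2, POLM and MCTP2 were closest to TWIST2, at 0.07, 0.09 and 0.12. C2CD2 rose from 2249 ± 108 to 5402 ± 128 normalized counts. PARP10, NETO2 and AK5 were closest to COL6A3, at 0.06, 0.09 and 0.09, and shared its lower control replicate 1: PARP10 had 3582, 4821 and 4529 in control replicates 1, 2 and 3. SV2A, LOC105376714 and RNF150 were closest to PDGFRA, at 0.21, 0.21 and 0.23, and in all of them, as in PDGFRA, KO replicate 3 was the lowest KO library. Such sharing, here and for COL6A3, follows from choosing genes by likeness. KO replicate 3 was the KO library closest to the controls in 50.1% of all listed genes. HLA-DQB1, PHF21B and OLAH were closest to LUM, at 0.14, 0.20 and 0.23. Between members the closest pair was TWIST2 and PDGFRA, at 0.80, and the most distant was CDH11 and COL6A3, at 4.11. The median listed gene lay at 1.15 from TWIST2 and at 1.12 from PDGFRA.

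Of 21 classical and type II cadherins, 5 were listed, with 3 higher and 2 lower in miR-31 KO. Cadherins join neighbouring cells through calcium-dependent binding. The type II cadherin CDH20 rose from 0.0256, 4.01 and 0 normalized counts in the controls, replicates 1, 2 and 3, to 6.63, 13.1 and 10.5 in the same order of KO replicates. CDH7, another type II cadherin, was listed at 0 in the controls and had 2.59, 3.45 and 3.49 in the KO replicates. In the other direction, the type II cadherin CDH10 fell from 21.6, 19.04 and 23.6 to 0.148, 8.15 and 0. The placental cadherin CDH3, found in epithelia, fell from 29.3 ± 5.06 to 3.01 ± 2.73. For CDH20, CDH7, CDH10 and CDH3 the authors' deposited table gave adjusted p-values of 0.0111, 0.0400, 0.00152 and 7.69e-07. Of 7 catenins, which tie cadherins to the cytoskeleton, JUP alone was listed and fell from 675 ± 251 to 231 ± 48.2. The epithelial cadherin CDH1 and the neural cadherin CDH2 were not listed, so an exchange of one for the other was not seen in this table and cannot be judged from it.

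TWIST2 was the 1 listed gene of 16 transcription factors of the epithelial-mesenchymal transition and their basic helix-loop-helix partners. TWIST1, SNAI1, SNAI2, ZEB1 and ZEB2 were among those not listed. Of 22 genes of the mesenchymal cytoskeleton and matrix, among them VIM and FN1, MMP2 alone was listed. It encodes a gelatinase that cleaves matrix proteins and rose from 1457 ± 147 to 8017 ± 1962 normalized counts. Of 30 epithelial genes 8 were listed, with CDH3 and JUP, described above, among them. Of these 8, 6 were lower and 2 higher, where 39.9% of all listed genes were lower. Their median log2 fold change was -1.43 in the authors' deposited table, where the median of all listed genes was 1.27. KRT19, a keratin of simple epithelia, fell from 1405 ± 366 to 469 ± 89.97, and ESRP1, a splicing regulator of epithelial cells, rose from 5.48 ± 5.51 to 36.2 ± 9.57. The remaining lower genes were KRT7, MUC1 and DSC2, and the remaining higher gene was OCLN.

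Collagen VI is assembled from an alpha-1, an alpha-2 and an alpha-3 or alpha-3-like chain. Of 13 collagen VI chain and receptor genes, COL6A3 and COL6A5 were listed, in opposite directions. COL6A5, an alpha-3-like chain, stood at 0 in every control and at 12.2, 13.2 and 2.29 normalized counts in KO replicates 1, 2 and 3, and the authors' deposited table gave it an adjusted p of 0.000515. KO replicate 3 was far below the other KO libraries. Its KO mean was 9.22 ± 6.02 normalized counts. COL6A1 and COL6A2, the genes of the partner chains, were not listed. Of 26 fibrillar collagen and collagen-processing genes 2 were listed: COL24A1 rose from 5.14 ± 2.03 to 15.8 ± 1.78 and COL11A2 fell from 45.6 ± 17.8 to 19.9 ± 3.66, for which the authors' deposited table gave adjusted p-values of 0.0296 and 0.0284. COL1A1, COL1A2 and COL3A1, the main collagens of fibroblasts, were not listed.

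PDGFRA was the 1 listed gene of 7 PDGF ligands and receptors, so no ligand of the receptor was listed. LUM was 1 of 2 listed genes of 17 small leucine-rich proteoglycans. The other was FMOD, fibromodulin, which also binds collagen fibrils and fell from 14.97, 6.01 and 9.82 normalized counts in the controls to 1.31, 1.72 and 1.74 in the KO replicates. The authors' deposited table gave FMOD an adjusted p of 0.00900. LUM and FMOD thus moved in opposite directions, and the sum of both lay between 6.01 and 14.97 in control and between 7.58 and 13.2 in miR-31 KO. This sum of low counts disregards gene length and cannot show whether their total level changed. Decorin, DCN, which lies beside LUM on chromosome 12, was not listed.

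LUM and PDGFRA were the listed genes among 12 fibroblast markers, and their summed level was 2.01 to 8.49 normalized counts per library in control and 26.7 to 42.5 in miR-31 KO. This sum and those of the other markers disregard gene length. The other 10, DCN, PDGFRB and COL1A1 included, were not listed. Of 14 leukocyte markers 2 were listed, summing to 5.62 to 20.03 in control and 21.9 to 97.7 in miR-31 KO. Most of each sum was ITGAM, whose groups overlapped. Control replicates 1, 2 and 3 held 5.62, 20.03 and 12.8 normalized counts of ITGAM. The miR-31 KO replicates held 17.9, 22.4 and 92.6, so KO replicate 3 set the top of the KO range. CD3D was at 0 in all controls and at 3.99, 8.78 and 5.16 in the KO replicates, and PTPRC was not listed. Of 11 endothelial markers 3 were listed, with KDR and TIE1 higher and ERG lower, summing to 1386 to 2232 in control and 4482 to 6158 in miR-31 KO. None of 9 muscle and pericyte markers was listed. The part of other cells in the levels of LUM and PDGFRA was not tested.

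COL6A3 and TWIST2 lie on the long arm of chromosome 2, 1433657 bases apart, with 17 protein coding genes between them, and moved in opposite directions. The other 3 listed genes within 1 Mb of either were higher in miR-31 KO. RAMP1, a receptor activity-modifying protein that lies between them, rose from 8.73 ± 8.69 to 48.7 ± 19.2 normalized counts. On the other side of COL6A3, the atypical chemokine receptor gene ACKR3 rose from 15.2 ± 6.91 to 293 ± 136 and IQCA1 from 13.96 ± 1.69 to 1074 ± 136. COL6A3 was thus the 1 lower gene of the 5 listed in this stretch, while 41 of 63 listed genes of chromosome 2 were higher. Within 1 Mb of PDGFRA the receptor gene KDR was listed. KDR encodes a receptor for vascular endothelial growth factor and rose from 213 ± 52.04 to 432 ± 54.2. KIT, which lies between PDGFRA and KDR, was not listed. On chromosome 4, which holds PDGFRA, 37 of 42 listed genes were higher, and on chromosome 16 CDH11 was 1 of 12 higher genes among 49. On chromosome 12, which holds LUM, 25 of 43 were higher. The share over all listed genes was 60.1%. CDH11 had 0 annotated protein coding genes within 1 Mb, and LUM had 4, with 0 listed.

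**Figure D4:**
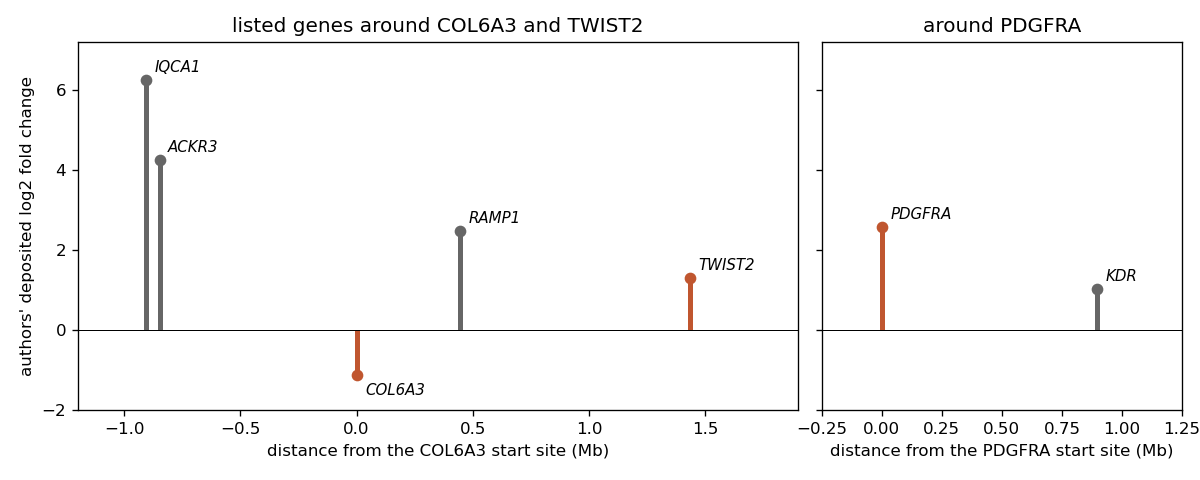
Authors' deposited log2 fold change, miR-31 KO over control, of the listed genes within 1 Mb of COL6A3 and TWIST2 (left) and of PDGFRA (right), by distance of their start sites from that of COL6A3 or PDGFRA. Members are in orange. COL6A3, at -1.12, points down between ACKR3 and RAMP1, which point up.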

How the data were processed

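RNA sequencing of 6 K1 libraries, 3 control and 3 miR-31 KO, was analysed; libraries were grouped by their titles. Trizol was used for RNA, per the labels' protocols. The submitters' processing notes name Bowtie2, HISAT, RSEM, hg19 and hg38 without roles, and how values were normalized or tested is not given in the sources used here. The library values are a signal, normalized counts made by the authors. The authors deposited a log2 fold change of miR-31 KO over control for each gene, whose sign matched the group means throughout. Each p-value, raw or adjusted, was likewise computed and deposited by the authors. These columns are the main result because the table is a selection. The ratio of adjusted p to p of the first gene gave 16806 tested genes. Members and gene lists were chosen with earlier results of these data known.

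The other test was limma 3.58.1 in R 4.3.3 (eBayes with trend) on log2(value + 1) of the 986 genes. It estimates spread from selected genes. Benjamini-Hochberg adjustment was over 16806 genes, though only listed genes had p-values to rank. Unlisted genes thus rank behind all listed ones, and the adjusted p-values of the refit can be too high. A call lost in the refit is therefore not evidence that a gene did not change. Same-numbered libraries did not pair: their deviations correlated at 0.20, -0.13 and 0.15. Positions, exons and 3′ UTRs came from GENCODE 29 (GRCh38), which may not be the authors' annotation. Besides the members, the genes named are listed genes of the lists (with values for up to 4 a list for markers), the 3 likest genes of each member and listed genes within 1 Mb. Python 3.11.15, pandas 2.3.3 and numpy 2.4.6 were used. Strandedness of the counting is unknown; no annotated gene on the opposite strand overlaps a member.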

Additional observations from a re-analysis of the deposited data

How the results depend on the processing

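All 5 members were called in the authors' deposited table, and all 5 had an adjusted p under 0.01; 3 reached 2 on the log2 scale. The limma refit called 3 of 5 (CDH11, TWIST2 and LUM), where it called 45.3% of listed genes, and it called 3 with a pseudocount of 0.1 (again CDH11, TWIST2 and LUM), 3 after quantile normalization (CDH11, TWIST2 and COL6A3), 3 with equal totals (CDH11, LUM and COL6A3) and 2 with a mean of at least 50, a filter that leaves out LUM and PDGFRA. With the replicate block it called 4, COL6A3 added (adjusted p = 0.0340); this is no sign of pairing, and it changed no other member's call. With 1 library left out the calls ranged from 2 to 5: 5 without control replicate 1, 2 when control replicate 2 or 3 was missing, and 3 when any 1 KO library was. The calls over all 986 listed genes moved too: 420, 182 and 189 without control replicate 1, 2 or 3, and 156, 185 and 396 without KO replicate 1, 2 or 3, against 447 with all libraries. Control replicates 2 and 3 against KO replicates 1 and 2, chosen after the data were seen, also gave 5 members, and 505 of all listed genes. Of 63 refitted member values 41 kept the authors' call, 22 did not, and 0 reversed in sign. The groups of no member overlapped, so only quantile normalization and equal totals could have reversed a sign. Quantile normalization moved the median log2 fold change of listed genes by -0.52 and gave COL6A3 -1.80 with an adjusted p of 0.00811. The refit called 278 higher and 169 lower genes, 177 and 282 after quantile normalization, and 146 and 216 with equal totals. These scalings force like distributions or like totals on selected genes. Over all refits the adjusted p ran from 0.000333 to 0.0145 for CDH11, 0.00101 to 0.175 for TWIST2, 0.000457 to 0.388 for COL6A3, 0.0242 to 0.479 for PDGFRA and 0.00366 to 0.0666 for LUM. The cause of the lost calls was not tested. The adjustment over 16806 genes ranks unlisted and filtered genes last. With a mean of at least 50, the limma refit gave COL6A3 a raw p of 0.00134, against 0.00138 without this filter. Its adjusted p rose from 0.0516 to 0.0741. Depth is unknown, so how far it limits LUM and PDGFRA was not tested.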
